A study of Mus musculus with 6 samples.

Results

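The Iroquois homeobox genes Irx1, Irx2, Irx3, Irx4, Irx5 and Irx6 were followed in RNA sequencing of sorted skin cells from newborn mice. They were found by gene symbol, and all 6 members were among the 24453 rows of the count files. The study has 3 control-labelled libraries and 3 Ring1a/b double-knockout (2KO-labelled) ones, with the genotype Ring1a-/- Ring1b-/-, all at postnatal day 0. It asks which genes differ when both catalytic RING1 proteins of Polycomb repressive complex 1 (PRC1) are lost in skin epithelium. The labels give neither the alleles that the controls carry nor the promoter of a Cre driver, and do not say how many animals gave each library, so p-values measure the spread between these libraries. The labels name hair follicle cells, whereas the sorting text attached to them sets out a sort of interfollicular epidermis (positive for Sca1 and EpCAM, with high α6-integrin).

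Iroquois proteins are transcription factors of the TALE homeobox class, which has an extended loop in the DNA-binding homeodomain, and they carry a short conserved motif of their own, the Iro box. Their genes lie in a pair of clusters and pattern the neural tube, heart, limb and other organs, with members of a cluster often expressed in overlapping domains. PRC1 marks histone H2A with ubiquitin and holds many homeobox genes silent in cells that do not use them, often at promoters rich in CpG dinucleotides.

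In the mouse assembly GRCm38, which mm10 names, Irx1 (chr13:71957921-71963723, minus strand), Irx2 (chr13:72628820-72634198, plus strand) and Irx4 (chr13:73260479-73269608, plus strand) form a cluster of 1311.7 kb, with 665.1 kb between Irx1 and Irx2 and 626.3 kb between Irx2 and Irx4. Irx3 (chr8:91798525-91802067, minus strand), Irx5 (chr8:92357625-92376286, plus strand) and Irx6 (chr8:92674288-92680956, plus strand) form the other, of 882.4 kb. All are protein-coding genes of the GENCODE vM21 annotation. The antisense transcript Irx3os overlaps exons of Irx3, and Gm45505 overlaps exons of Irx6 on the other strand. No source used here gives the strand setting of the counting, so reads of Irx3 and Irx6 cannot be told apart from reads of these partners.

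The bases before the start sites of Irx2 and Irx4 are shown because these were the most abundant members of the family and the first passed the test between the groups while the second did not. They are from RefSeq (GRCm38.p6, plus strand, 5′ to 3′), with each CpG in capitals. The stretch of 250 bases before Irx2 (chr13:72628570-72628819) fills nearly all of the 255 bases that part Irx2 from the noncoding gene Gm20554, which runs the other way. The stretch of 232 bases before Irx4 (chr13:73260247-73260478) ends where the GENCODE gene begins.
Irx2: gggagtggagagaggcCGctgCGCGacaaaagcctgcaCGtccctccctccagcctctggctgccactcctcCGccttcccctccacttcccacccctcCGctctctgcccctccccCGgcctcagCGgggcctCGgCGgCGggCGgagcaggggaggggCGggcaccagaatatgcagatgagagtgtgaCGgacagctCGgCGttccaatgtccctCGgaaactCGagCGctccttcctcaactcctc
Irx4: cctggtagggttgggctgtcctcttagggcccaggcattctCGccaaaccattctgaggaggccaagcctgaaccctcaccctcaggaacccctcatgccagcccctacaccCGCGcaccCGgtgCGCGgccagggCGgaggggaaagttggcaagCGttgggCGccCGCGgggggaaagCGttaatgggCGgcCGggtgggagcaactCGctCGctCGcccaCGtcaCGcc
The Irx2 stretch held 19 CpG dinucleotides, and 19.7% of 32851 promoters of RefSeq genes held as many or more in the same length. The full 250 bases before the RefSeq start of Irx4 held 22 (14.8% of promoters held as many or more), and those before the RefSeq start of Irx3, which lie inside the GENCODE gene, held 13 (31.5%). The median over all promoters was 6. The sequence ACANNTGT, a reported recognition motif of Iroquois proteins that reads the same on both strands, occurred in none of these 3 stretches and in 6.31% of all promoters. Of the members, Irx2, Irx3 and Irx4 were in the table of promoters.

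The libraries held between 24.8 and 30.8 M counts (M, mega). Levels are counts per megacount (CPM) after TMM scaling, and 1 count corresponded to between 0.0323 and 0.0392 CPM. Of 14972 genes tested by edgeR's quasi-likelihood test, 6.61% were higher and 2.42% lower in the 2KO-labelled libraries at an adjusted p under 0.05, 9.02% in all. Levels of the targeted genes overlapped between the groups. Ring1 was between 3.37 and 22.4 CPM in the control-labelled libraries, lowest in control replicate 3, and between 1.84 and 14.1 CPM in the 2KO-labelled ones (edgeR adjusted p = 0.537). Rnf2 ranged from 47.1 to 79.5 and from 66.4 to 89.2 CPM (adjusted p = 0.615). Which exons were deleted is not stated. The groups are therefore named by their labels. The groups lay apart on the first principal component (54.0% of variance), at -80.9 to -57.7 for control-labelled and 67.8 to 76.4 for 2KO-labelled libraries. The replicate-1 library of each group stood apart on the second principal component, at 44.8 and 68.5 against -32.9 to -23.8 for the other 4 libraries. Ly6a, which encodes Sca1, was between 1.92 and 7.28 CPM. Of 18 markers of the hair shaft, matrix and inner root sheath, 16 could be tested, and Dlx3 (131 to 181 CPM) and Krt28 (15.9 to 24.9 CPM) were among those detected in all 3 libraries labelled control. Krt5, Krt14, Krt15, Trp63, Col17a1, Itga6 and Itgb4, markers of basal keratinocytes, summed to between 15558 and 28977 CPM in each library. Skeletal muscle markers summed to at most 1.95 CPM, endothelial markers to at most 14.7 CPM and immune markers to at most 19.3 CPM. Melanocyte markers summed to between 23.1 and 80.9 CPM, highest in 2KO replicate 3, and dermal fibroblast markers to between 526 and 1148 CPM. Cd207, which marks Langerhans cells, had 0 counts in all 6 libraries.

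Among the Iroquois genes, Irx2 fell and Irx6 rose in the 2KO-labelled libraries, and the other 4 did not pass the test. Irx2, one of the most abundant members in the control libraries, fell to 61.3% of its control level by the fitted fold. Irx6, nearly silent in the control-labelled libraries, reached a mean of 2.03 CPM. Of 6 members, 1 was thus called in each direction, where 6.61% (higher) and 2.42% (lower) of all tested genes were. Irx6 entered the test through its counts in the 2KO group. The calls of Irx2 and Irx6 were lost in 8 of 17 and 6 of 16 alternative fits. The fitted log2 fold change was above 0 for 5 of the 6 members, with a median of 0.42, against a median of -0.02 over all tested genes. The groups did not overlap for 3 members, Irx1, Irx2 and Irx6, and for 28.4% of all tested genes. In bulk libraries, fewer cells that express a gene and less of its RNA per cell cannot be told apart.

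**Figure D1:**
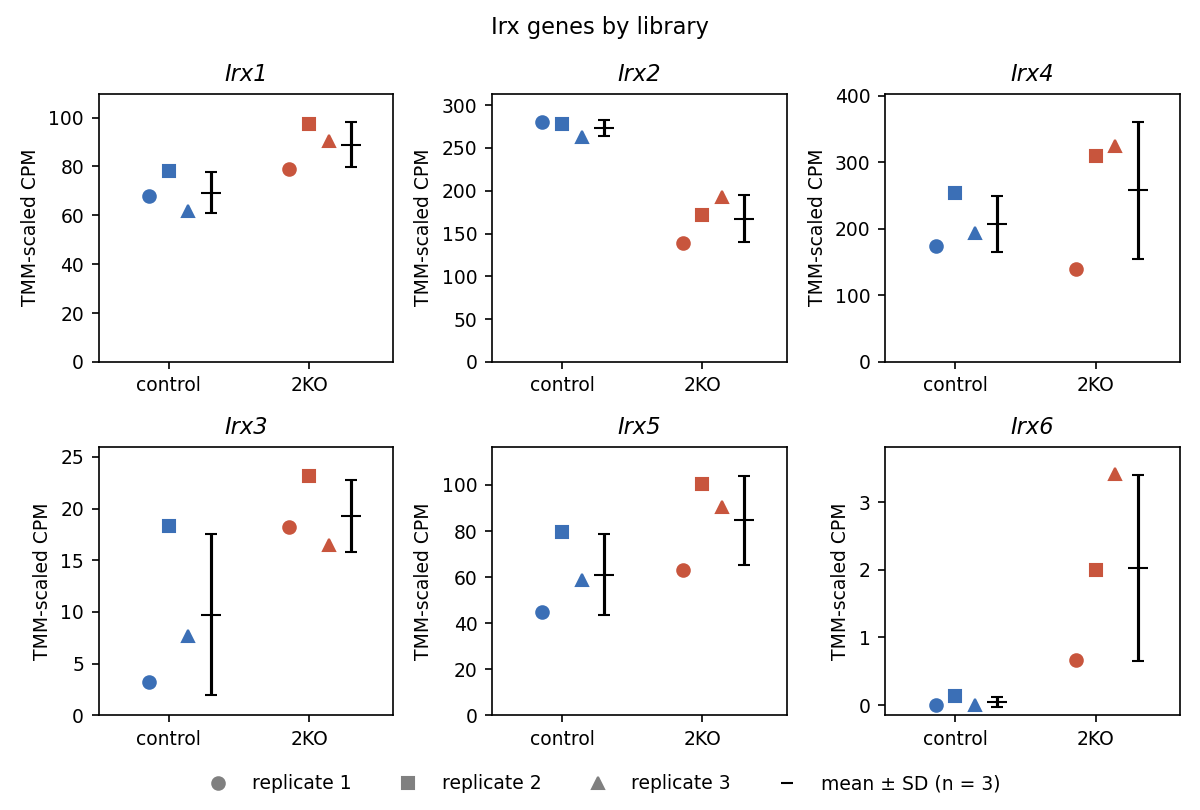
TMM-scaled CPM of each Irx gene in the 3 control (blue) and 3 2KO (red) libraries, with a linear axis for each gene, symbols by replicate and bars for the mean ± SD. The control libraries of Irx2 (263 to 280 CPM) lie above all 2KO libraries (139 to 192 CPM), those of Irx6 lie at or near 0, and the groups overlap for Irx3, Irx4 and Irx5.

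Irx2, a factor of lung, limb and nervous system development, was at 280, 278 and 263 CPM in control replicates 1, 2 and 3 against 139, 172 and 192 CPM in 2KO replicates 1, 2 and 3. The control libraries lay within a narrow band, and every 2KO library lay below all of them, lowest in replicate 1. The log2 fold change was -0.71 (SE 0.17, edgeR adjusted p = 0.0305). The direction held in each of 17 alternative fits, with log2 fold changes from -0.85 to -0.55, but the call was lost whenever any library but 2KO replicate 3 was left out (by edgeR, leaving out control replicate 1, 2 or 3 gave an adjusted p of 0.0854, 0.0953 or 0.0861, and leaving out 2KO replicate 1, 2 or 3 gave 0.0697, 0.0938 or 0.0418). Without both replicate-3 libraries, whose Ring1 levels go against their labels, the adjusted p was 0.108.

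Irx1, which lies in the same cluster and is expressed in lung, kidney and limb development, was at 67.8, 78.3 and 61.6 CPM in the control-labelled replicates, against 79.1, 97.3 and 90.4 CPM in the 2KO-labelled ones. The groups did not overlap, but control replicate 2 and 2KO replicate 1 were nearly equal. The log2 fold change was 0.36 (SE 0.18, edgeR adjusted p = 0.295), and no alternative passed the threshold (lowest adjusted p = 0.215).

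Irx4, known for its role in the identity of heart ventricles, was at 174, 254 and 193 CPM in the control-labelled replicates, against 140, 309 and 325 CPM in the 2KO-labelled ones. The 2KO group spanned the whole control range, with replicate 1 below and replicates 2 and 3 above every control library. The log2 fold change was 0.32 (SE 0.30, edgeR adjusted p = 0.626), and it was 0.63 without 2KO replicate 1 (adjusted p = 0.0971).

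Of the other cluster, Irx3, which takes part in neural patterning and in the conduction system of the heart, was at 3.23, 18.3 and 7.62 CPM in the control-labelled replicates, against 18.2, 23.2 and 16.4 CPM in the 2KO-labelled ones. Control replicate 2 lay among the 2KO libraries, and the other control libraries lay below them. The log2 fold change was 0.99 (SE 0.52, edgeR adjusted p = 0.322). Irx3 passed the threshold in 1 of 17 alternatives, without control replicate 2, where the log2 fold change was 1.83 (edgeR adjusted p = 0.0398).

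Irx5, a neighbour of Irx3 with roles in the heart and retina, was at 44.6, 79.5 and 58.9 CPM in the control-labelled replicates, against 63.0, 100.6 and 90.4 CPM in the 2KO-labelled ones. Only 2KO replicate 1 lay within the control range. The log2 fold change was 0.47 (SE 0.26, edgeR adjusted p = 0.342), with a lowest adjusted p of 0.165 over 17 alternatives.

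Irx6, known from interneurons of the retina, had 0, 4 and 0 counts in the control-labelled libraries and 17, 60 and 87 in the 2KO-labelled ones. These correspond to 0, 0.129 and 0 CPM and to 0.667, 2.00 and 3.41 CPM, and a count of 0 allows up to 0.106 CPM in control replicate 1 and 0.0981 CPM in control replicate 3. Every 2KO library lay above every control library, and the 2KO libraries differed among themselves more than those of any other member in proportion to their mean. Over the groups, 164 counts stood against 4, a ratio of 45.5 with a 95% exact interval from 17.4 to 169 that covers counting error only. The fitted log2 fold change was 5.39 (SE 1.32, edgeR adjusted p = 0.0332). Irx6 entered the test through its counts in the 2KO group, and it was not tested where at least 1 CPM in 3 libraries was required. Its call was lost without control replicates 1 or 3 or 2KO replicates 2 or 3 (edgeR adjusted p = 0.0927, 0.104, 0.0825 and 0.111), and was also lost without both replicate-3 libraries (0.233).

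**Figure D2:**
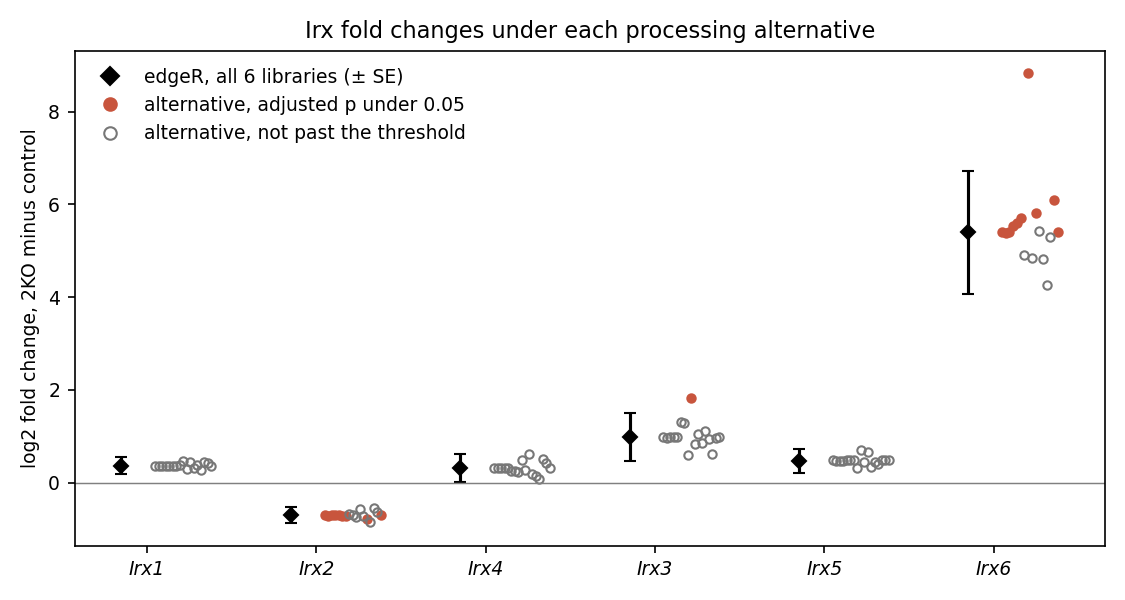
Log2 fold change of 2KO against control for each Irx gene, with the edgeR fit of all 6 libraries (black, ± SE) beside the alternative fits (red where the adjusted p is under 0.05, open where it is not). No Irx gene changes direction, and the calls of Irx2 and Irx6 are lost in 8 of 17 and 6 of 16 alternatives.

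Levels of different genes were set beside each other per kb of annotated exon. In the libraries labelled control, Irx2 (83.3 ± 2.89 CPM per kb, SD, n = 3) and Irx4 (79.4 ± 16.1) were highest, followed by Irx1 (26.4 ± 3.21), Irx5 (19.5 ± 5.60), Irx3 (3.52 ± 2.81) and Irx6 (0.0128 ± 0.0221). The ranges of Irx2 and Irx4 overlapped, as did those of Irx1 and Irx5, whereas the other neighbours in this order did not overlap. Irx2 and Irx4 stood above 98.9% and 98.8% of 23753 genes with a length in level per kb, and Irx6 above 28.3%.

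In the libraries labelled 2KO the highest level per kb was that of Irx4 (98.9 ± 39.3, SD, n = 3), and Irx2 (51.0 ± 8.24) came after it, with overlapping ranges. Irx1 was at 33.9 ± 3.50, Irx5 at 27.1 ± 6.22, Irx3 at 6.98 ± 1.27 and Irx6 at 0.602 ± 0.408. Within single libraries, Irx2 was above Irx4 per kb of exon in 2 of 3 control libraries and in 0 of 3 2KO libraries. Per kb of coding sequence, it was above Irx4 in 3 of 3 and in 1 of 3, so that the order of these 2 genes depends on the length used.

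**Figure D3:**
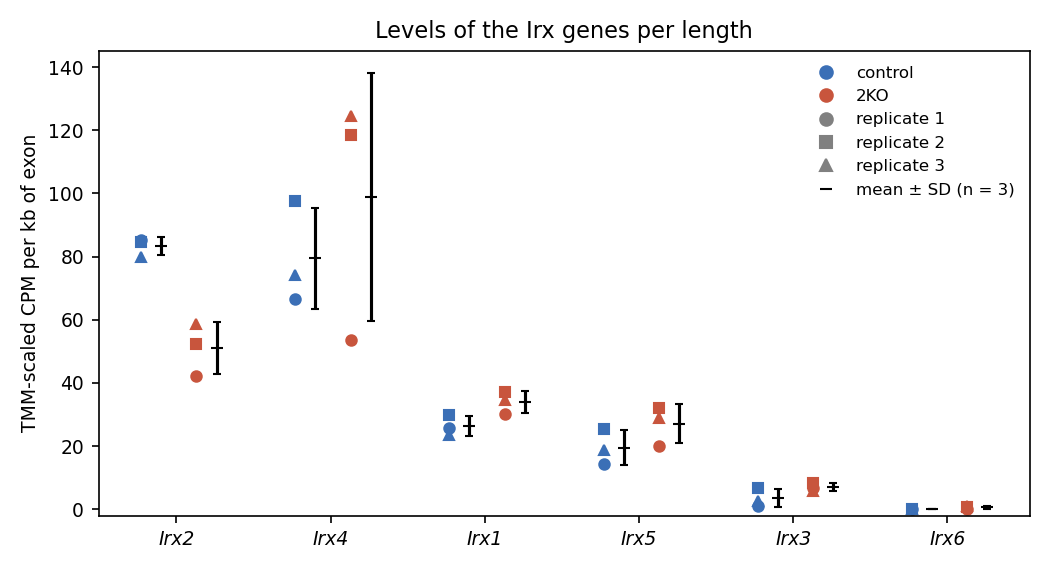
TMM-scaled CPM per kb of annotated exon for the Irx genes, ordered by control mean, in the control (blue) and 2KO (red) libraries with mean ± SD. Irx2 and Irx4 lie above the other members in every library, and Irx6 lies between 0 and 1.01 CPM per kb.

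The ratio of counts of 2 members within a library does not depend on how libraries are scaled. Counts of Irx2 were 4.13, 3.55 and 4.26 times those of Irx1 in the control-labelled libraries and 1.75, 1.76 and 2.13 times in the 2KO-labelled ones. The ratio was thus lower in every 2KO library, by 1.08 on the log2 scale, and this difference was between 1.03 and 1.17 in size with any 1 library left out. Counts of Irx2 were 1.61, 1.09 and 1.36 times those of Irx4 in the control group and 0.992, 0.555 and 0.592 times in the 2KO group, again with no overlap. Counts of Irx4 relative to Irx1 overlapped between the groups (2.56 to 3.25 and 1.77 to 3.59). In all, 5 such ratios were computed, and they were chosen after the values were seen. Those with Irx2 use the same counts as its call and are not a separate test of it. The exact two-sided permutation p was 0.1 for both Irx2 ratios (0.25 adjusted over the 5), the smallest that 3 libraries against 3 can give, so these differences could not pass the threshold by this test.

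**Figure D4:**
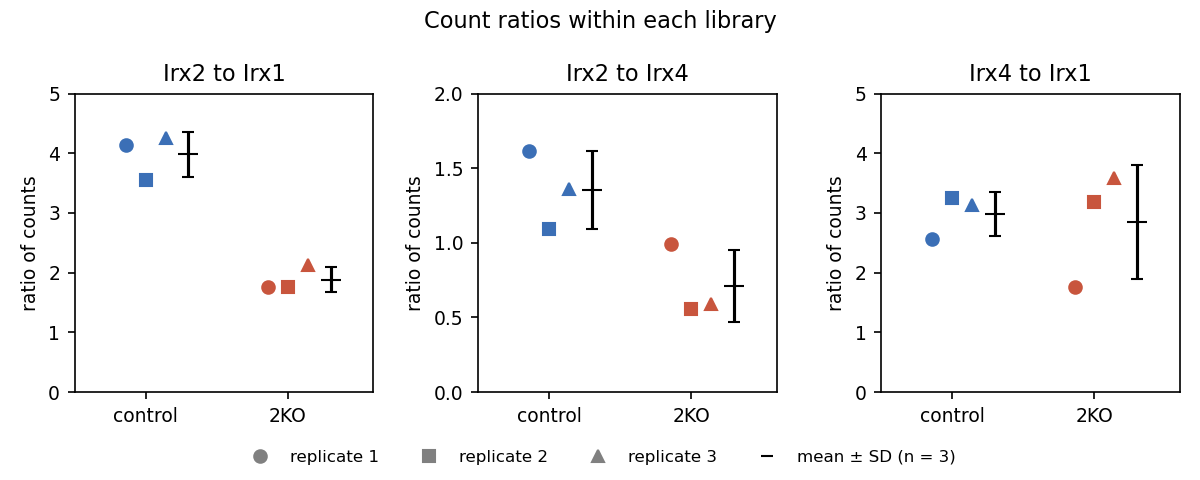
Ratio of read counts between 2 Irx genes within each library, for the 3 control and 3 2KO libraries with mean ± SD. Irx2 relative to Irx1 is 3.98 ± 0.379 in control and 1.88 ± 0.213 in 2KO, while Irx4 relative to Irx1 overlaps between the groups.

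Members also varied within a group. In the 2KO group, replicate 1 was the lowest library for 5 of 6 members, all but Irx3. In the control group, replicate 1 was the lowest for 3, Irx3, Irx4 and Irx5. The summed level of the differentiated keratinocyte markers (Krt1, Krt10 and 5 others) was also lowest in these libraries, at 3101 CPM in control replicate 1 against 9267 and 11510, and at 1223 CPM in 2KO replicate 1 against 3583 and 3789. The part of these libraries' makeup in the Irx values was not tested.

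Markers of the sampled cells moved between the groups as well. Of 16 tested markers of the hair shaft, matrix and inner root sheath, 11 fell in the 2KO-labelled libraries and 0 rose by edgeR (2 were higher at an unadjusted p under 0.05, and 0 by DESeq2 or limma-voom), where 2.42% of all tested genes were lower and 6.61% higher. They include Hoxc13, a homeobox gene of hair, and Krt71, a keratin of the inner root sheath. Some of those that fell entered the test through their counts in the control group. Among them are Krt25 (0 CPM in each 2KO library) and Krt28 (at most 0.0392 CPM there). For such markers a fall was the only call possible. The number that fell was 7 without control replicate 1 or 2KO replicate 1 and 6 without both replicate-3 libraries, and 1 marker rose without control replicate 1. Their median log2 fold change was -2.66, and their summed level was 730 to 811 CPM in the control group and 542 to 651 CPM in the 2KO group. Of 11 tested dermal fibroblast markers 3 rose, Col5a1, Pdgfra and Fbn1, against 6.61% of all tested genes, and 1 rose without both replicate-3 libraries. The list summed to 526 to 902 CPM in the control group and to 964 to 1148 CPM in the 2KO group. Its other tested members did not pass, and Lum, Dpt and Col1a2 had log2 fold changes below 0 (-0.85, -0.77 and -0.13). Twist2, with too few counts to be tested, was at 0.0646 to 0.284 CPM in the control group and at 0, 0 and 0.0392 CPM in the 2KO group.

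Members of other marker lists were called as well, where 2.42% of all tested genes were lower and 6.61% higher. Of 14 markers of hair placode, germ and outer root sheath, Shh, Lgr5 and Lrig1 fell (1 of the list passed as lower without both replicate-3 libraries). By DESeq2 4 of this list were lower and 1 higher, and by limma-voom 3 were lower and 1 higher. Lgr5, a marker of hair follicle stem cells, was at 200.3, 81.9 and 74.1 CPM in the control group and at 23.7, 2.27 and 12.7 CPM in the 2KO group. Of 7 tested markers of differentiated keratinocytes Krt77 fell, from 25.2 ± 15.8 to 1.80 ± 0.930 CPM (SD, n = 3), while with DESeq2 3 of this list fell and without both replicate-3 libraries 0 did. Krt7, a keratin of simple and glandular epithelium, rose from 14.5 ± 17.01 to 153 ± 36.7 CPM, and Krt18, a keratin of simple epithelium and Merkel cells, from 1.67 ± 1.27 to 23.9 ± 18.9 CPM. Each was the only member called of its list (6 sweat and sebaceous gland and 5 Merkel cell markers tested), and neither list had a call in the same direction without both replicate-3 libraries; the gland list also had none without 2KO replicate 3. The part of any of these marker lists in the values of Irx2 and Irx6 was not tested.

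Around the clusters, most genes did not pass the test. Of 40 genes in the count files that lie within 1 Mb of either cluster, 25 were tested, 1 rose and 0 fell by edgeR (2 were higher and 3 lower at an unadjusted p under 0.05, 1 and 1 passed with DESeq2, and 1 and 0 with limma-voom). Over all tested genes 6.61% rose and 2.42% fell, so these counts do not set the neighbourhood apart. Their median log2 fold change was -0.05. The gene that rose was Slc12a7, a potassium-chloride cotransporter 463.5 kb beyond Irx4, from 21.4 ± 3.99 to 41.8 ± 3.71 CPM (n = 3), a log2 fold change of 0.96 (SE 0.22) with an edgeR adjusted p of 0.0263. Its call was lost without control replicates 1 or 3 or 2KO replicates 2 or 3 (adjusted p = 0.0837, 0.0974, 0.0705 and 0.0735). Capns2, a small calpain subunit 220.5 kb beyond Irx6, was at 22.4 to 86.2 and at 6.55 to 20.8 CPM and missed the threshold (edgeR adjusted p = 0.0675), which it passed as lower with DESeq2 (adjusted p = 0.0029). Slc6a3, 267.1 kb beyond Irx4, had the largest log2 fold change of the tested neighbours (3.33, SE 1.36) but did not pass (edgeR adjusted p = 0.19). It was at 0, 0.452 and 0 CPM in the control group and at 1.37, 2.24 and 1.10 CPM in the 2KO group.

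The noncoding genes Gm20554 and Crnde, beside Irx2 and Irx5, were counted and did not pass the test. Irx3os and Gm45505, which overlap Irx3 and Irx6, were not among the genes counted. Gm20554, which starts on the other strand beside Irx2, was at 36.9, 62.3 and 42.0 CPM in the control group and at 12.9, 47.0 and 46.8 CPM in the 2KO group. The groups overlapped, with 2KO replicate 1 far below the rest (log2 fold change -0.40, SE 0.44, edgeR adjusted p = 0.676). Crnde, a long noncoding RNA 1504 bases from Irx5 on the other strand, was at 17.3, 26.7 and 26.5 CPM and at 15.0, 32.4 and 33.6 CPM (a log2 change of 0.20, SE 0.33, edgeR adjusted p = 0.807). Replicate 1 was the lowest library of each group for both genes, as it was for Irx4 and Irx5. Fto, an RNA demethylase gene known for holding enhancers of Irx3 and Irx5 in its introns, was at 72.6 ± 4.36 and 64.3 ± 10.9 CPM (n = 3, edgeR adjusted p = 0.679). Rpgrip1l, a gene of the primary cilium beyond Fto, was at 40.2 ± 11.4 and 32.3 ± 5.22 CPM (adjusted p = 0.545).

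**Figure D5:**
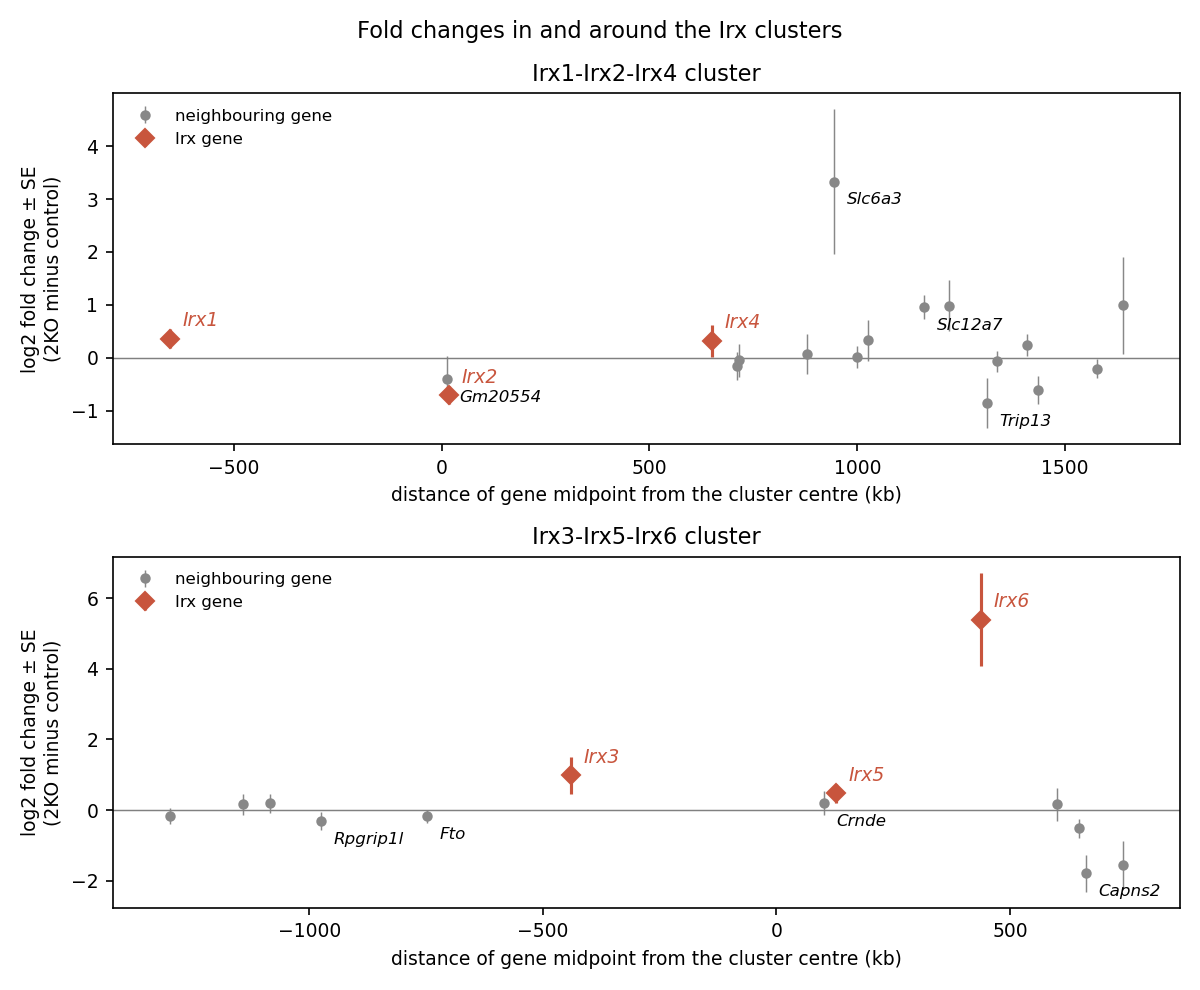
Log2 fold change (± SE) of tested genes within 1 Mb of each Irx cluster (grey) and of the Irx genes (red), by distance of the gene's midpoint from the cluster centre in kb. Irx2 lies at -0.71 and Irx6 at 5.39, while Gm20554 (-0.40) and Crnde (0.20) beside Irx2 and Irx5 lie within an SE of 0.

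Of 12 other TALE homeobox genes, 11 were tested, 4 rose in the 2KO-labelled libraries and 0 fell by edgeR, where 6.61% and 2.42% of all tested genes did. At an unadjusted p under 0.05, 5 were higher and 1 lower, and 5 were higher and 0 lower by both DESeq2 and limma-voom. The median log2 fold change of the list was 0.34. Without both replicate-3 libraries 1 of them, Meis2, still passed. Meis2, a cofactor of Hox proteins, was at 23.7, 43.5 and 36.5 CPM in the control group and at 132, 133 and 148 CPM in the 2KO group (a log2 change of 1.99, SE 0.24, edgeR adjusted p = 0.00147). It passed in each of 17 alternatives. Meis1, a cofactor of the same kind, went from 17.5 ± 7.16 to 44.0 ± 6.53 CPM (edgeR adjusted p = 0.0255), and its call was lost when any library but control replicate 2 was left out (adjusted p from 0.0511 to 0.079). Mkx, a factor of tendon development that is related to the Iroquois genes, went from 0.492 ± 0.376 to 5.38 ± 1.05 CPM (a log2 change of 3.45, SE 0.66, edgeR adjusted p = 0.0115). Like Irx6, Mkx entered the test through its counts in the 2KO group. Pknox2, a further Hox cofactor, went from 1.42 ± 0.138 to 7.04 ± 1.04 CPM (adjusted p = 0.00935). Tgif1, a repressor of TGF-beta signaling, was at 132 ± 38.03 and 115 ± 74.4 CPM and did not pass (adjusted p = 0.838). No test compared this list with the Iroquois genes.

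The genes whose log2 levels over the 6 libraries were most like those of each member were ranked by Pearson's r among 12006 genes. With so many genes and 6 libraries, high values are common, and they are given as a description. Choosing genes by this likeness also brings a like order of libraries and a like direction between the groups. For Irx2 they included Vdr (r = 0.996) and Zfp81 (0.995). Vdr, the vitamin D receptor, which is needed for hair cycling, was at 220, 204 and 202 CPM in the control group and at 43.8, 79.8 and 99.0 CPM in the 2KO group, the same order of 2KO libraries as for Irx2 (log2 fold change -1.49, edgeR adjusted p = 0.00934). Zfp81 also fell (-0.93, edgeR adjusted p = 0.037), a call lost in 9 of 17 alternatives, among them whenever any 1 library was left out (adjusted p from 0.0645 to 0.115).

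For Irx6 the most similar genes were Rdh13 (r = 0.998), Zfp523 (0.998) and Rasgrf1 (0.996). Rasgrf1, an exchange factor for Ras, was at 2.75 to 6.17 CPM in the control group and at 12.8, 21.0 and 36.3 CPM in the 2KO group (log2 fold change 2.53, edgeR adjusted p = 0.00969), a call lost without both replicate-3 libraries (1.85, adjusted p = 0.118). For Irx4 they were Dexi (0.997), Slc25a42 (0.996) and Zbtb24 (0.996), and for Irx5 Il18bp (0.994), Plpp6 (0.986) and Dhx32 (0.984). For Irx1 they were Kbtbd8 (0.996), Atp2c2 (0.992) and Sema6c (0.989), and for Irx3 D17H6S53E (0.994), Klk5 (0.989) and Mb21d1 (0.987). None of these last 12 genes, nor Rdh13 and Zfp523, passed the threshold in the edgeR fit of all 6 libraries.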

How the data were processed

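RNA of sorted newborn skin cells was measured in 3 libraries labelled control and 3 labelled 2KO. Per the labels' protocols, cDNA was made and amplified from 10 ng of total RNA with the Ovation system, and single reads of 100 nt were obtained; no molecular identifiers are mentioned, so reads are not independent molecules. Each deposited file lists raw counts by gene symbol, not normalized. Per the submitters' processing notes the tools were TopHat2 2.0.13, Cufflinks 2.2.1, HTSeq 0.6.1 and DESeq2 1.6.3, with the build mm10; the sources used here do not give their roles, the annotation or the strand setting.

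From these counts, genes were kept by filterByExpr and scaled by TMM in edgeR 4.0.16 (R 4.3.3), and the groups were compared by its quasi-likelihood test without covariates, with Benjamini-Hochberg adjustment across the tested genes (threshold 0.05). The SE of a log2 fold change is its size divided by the square root of F. The script was tested on simulated data, in which the changed genes had larger folds than Irx2 and higher levels than Irx6. That test therefore covers neither call. Coordinates and exon lengths are from GENCODE vM21, in which 97.1% of symbols matched 1 gene. All Irx genes are named; TALE genes that passed and the 3 most abundant, neighbours that passed or stand beside an Irx gene, and the 3 most similar genes (mean of at least 2 CPM, log2 CPM with a prior count of 2) are named by rule, and some genes it names are not reported here. Capns2 and Slc6a3 were named after their values were seen, and the count ratios were also chosen then. The members and lists were chosen with earlier results of these data known. Alternatives were other scaling, filters, DESeq2 1.42.0, limma-voom (limma 3.58.1), a replicate block, Xist as a covariate and libraries left out.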

Additional observations from a re-analysis of the deposited data

How the results depend on the processing

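Of the 6 Irx genes none changed direction in 17 alternatives (16 for Irx6). Irx2 was called in 9 and Irx6 in 10 of them, and Irx3 in 1. The number of Irx genes that rose was 0 with at least 1 CPM required in 3 libraries, 0 with both replicate-3 or both replicate-1 libraries left out (adjusted p of Irx6 0.233 and 0.0612), and from 0 to 2 without any 1 library. The number that fell was 0 with both replicate-3 or both replicate-1 libraries left out (adjusted p of Irx2 0.108 and 0.0936), 0 with Xist as a covariate (0.0679), and from 0 to 1 without any 1 library. Over all genes, 309 rose and 72 fell with both replicate-3 libraries left out, 733 fell with DESeq2 and 231 with Xist as a covariate, and from 615 to 854 rose and from 184 to 347 fell without any 1 library. Of the TALE relatives 1 rose with both replicate-3 libraries left out. Of the genes near the clusters, 0 rose with both replicate-3 or both replicate-1 libraries left out, and from 0 to 2 without any 1 library; 1 fell with no low-count filter, DESeq2, the replicate block or both replicate-1 libraries left out, and from 0 to 1 without any 1 library. The control mean of Irx2 to Irx4 per kb was 1.08 by exon length and 1.47 by coding length. Fewer libraries were fitted where some were left out, and Irx6 was not tested where at least 1 CPM in 3 libraries was required. The cause of the other changes was not tested.

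Same-numbered libraries of the groups had correlations of 0.29, 0.089 and -0.0756 in their deviations from the group means. The replicate-1 pair had the highest value of all pairs. Control replicate 2 correlated best with 2KO replicate 3 (0.136), and control replicate 3 with 2KO replicate 2 (0.212). The numbers were therefore not taken to pair the libraries. With the replicate number as a block 1142 genes rose and 540 fell, and 1 Irx gene rose and 1 fell (Irx6, adjusted p = 0.0246, and Irx2, 0.0298). Counts limit Irx6 most: it had 4 counts over the control group.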
